A study of Mus musculus with 8 samples.

Results

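CXC chemokines are small secreted proteins that steer leukocytes along concentration gradients. The 8 genes Cxcl1, Cxcl2, Cxcl3, Cxcl5, Cxcl9, Cxcl10, Cxcl12 and Cxcl14 were followed through the dorsal skin of hairless mice fed collagen hydrolysate or a control diet. They were chosen with earlier results of these data known, and Cxcl3 was selected on its collagen minus control difference. All probe sets annotated with exactly 1 of these symbols were taken, 14 of 45037 probe sets, and the one with the highest mean over all 8 arrays served as the main probe set of its gene, giving 8 of 18193 genes.

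The collagen group received AIN-93G, a purified rodent diet, mixed with a hydrolysate of fish-scale collagen, that is, collagen broken down to peptides, at 2.0 g per 100 g of diet for 1 week, and the control group received AIN-93G alone. Both groups were female mice of the hairless strain Hos:HR-1, aged 9 weeks at the start and 10 weeks at sampling. The study divided 16 mice into 2 groups of 8, housed 4 to a cage, and 4 arrays per diet were analysed, labelled as biological replicates. The labels do not tie the arrays to single mice or cages and name no batch, so p-values measure the spread between these arrays.

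Each array gave 45101 deposited log2 values between 6.56 and 14.46, with array medians between 8.1927 and 8.1929. The values hardly moved between arrays. The median span of a probe set across the arrays was 7.36e-06, and 87.2% of probe sets had a range under 0.0001. The step that made the spans so small is not stated. Each difference is therefore left in deposited log2 units with its standard error (SE), or expressed in multiples of the within-group SD, and none is converted to a fold change. Of the markers fixed for skin cells, Krt14 of basal keratinocytes lay at 14.19, Krt10 of suprabasal keratinocytes at 14.39 and Col1a1 of fibroblasts at 11.19. Whole skin was measured, so a change in the number of cells of a type and a change in RNA per cell cannot be told apart. Over all probe sets, 0 of 45037 (0%) passed an adjusted p of 0.05 for diet by limma's moderated test (Benjamini-Hochberg over all probe sets), and 1601 (3.55%) had an unadjusted p under 0.05. Over genes the counts were 0 of 18193 (0%) and 635 (3.49%), and limma without moderation also called 0.

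The members fall into 3 groups by role. Cxcl1, Cxcl2, Cxcl3 and Cxcl5 attract neutrophils through the receptor Cxcr2 and are switched on by interleukin-1, tumour necrosis factor and microbial products, largely through the transcription factor NF-kappaB. Cxcl9 and Cxcl10 are induced by interferon and attract activated T cells through Cxcr3. Cxcl12, the ligand of Cxcr4, is made steadily by stromal cells, and Cxcl14 is made steadily by skin epithelium. In the gene order of assembly GRCm38.p6, Cxcl1 and Cxcl2 are direct neighbours on chromosome 5, and Cxcl15 lies between Cxcl3 and Cxcl1. Art3 lies between Cxcl9 and Cxcl10 on the same chromosome, whereas Cxcl12 lies on chromosome 6 and Cxcl14 on chromosome 13.

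Promoter sequence is shown for the members whose window holds a match to an NF-kappaB motif, since this factor is the shared switch of the inducible members. RefSeq promoter windows of build GRCm38.p6 (300 bases, from 250 before to 50 after the gene start) matched 7 of the 8 genes, all but Cxcl5, whose promoter was not examined. Each line gives the 200 bases before the gene start, 5′ to 3′ on the gene's strand, with capitals marking the match to GGGANNTTC on either strand.
Cxcl3, chr5:90785901-90786100, plus strand: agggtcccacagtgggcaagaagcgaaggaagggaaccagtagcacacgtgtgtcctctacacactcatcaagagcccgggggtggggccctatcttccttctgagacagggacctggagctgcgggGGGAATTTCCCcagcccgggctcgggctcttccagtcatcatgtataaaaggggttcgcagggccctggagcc
Cxcl1, chr5:90891045-90891244, plus strand: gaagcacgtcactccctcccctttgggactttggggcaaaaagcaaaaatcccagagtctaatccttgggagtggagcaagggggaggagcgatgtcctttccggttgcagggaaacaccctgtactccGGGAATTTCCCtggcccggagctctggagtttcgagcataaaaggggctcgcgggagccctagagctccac
Cxcl2, chr5:90903699-90903898, plus strand: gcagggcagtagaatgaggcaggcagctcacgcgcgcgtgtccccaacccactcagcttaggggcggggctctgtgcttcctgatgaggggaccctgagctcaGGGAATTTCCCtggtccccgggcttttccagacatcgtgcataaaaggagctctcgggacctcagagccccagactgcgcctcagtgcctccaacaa
Cxcl10, chr5:92348890-92349089, minus strand: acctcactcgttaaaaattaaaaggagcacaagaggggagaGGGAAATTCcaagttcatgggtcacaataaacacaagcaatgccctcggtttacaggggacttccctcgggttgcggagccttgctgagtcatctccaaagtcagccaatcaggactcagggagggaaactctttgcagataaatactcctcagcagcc
Cxcl9, chr5:92328080-92328279, minus strand: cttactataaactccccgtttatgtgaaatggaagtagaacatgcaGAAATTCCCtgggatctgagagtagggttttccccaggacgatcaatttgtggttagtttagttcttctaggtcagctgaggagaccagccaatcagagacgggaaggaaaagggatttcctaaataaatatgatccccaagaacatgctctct

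Cxcl3, Cxcl1 and Cxcl2 carried the same 11-base run, GGGAATTTCCC, in which matches on both strands overlap. It spanned positions -73 to -63 in Cxcl3, -71 to -61 in Cxcl1 and -97 to -87 in Cxcl2, counted from the gene start. This run was present in 12 of 32851 promoter windows (0.0365%). The shorter motif GGGANNTTC was found in 5 of the 7 member windows, against 3.94% of all windows, and the matches of Cxcl10 and Cxcl9 began at -159 and -154. The interferon response motif GAAANNGAA was found in Cxcl9, Cxcl10 and Cxcl14 (3 of 7, against 8.56% of all windows). The motif TTCNNNGAA, read by STAT factors, was found in Cxcl14 alone (1 of 7, against 8.30%). The AP-1 motif TGANTCA was found in Cxcl9 and Cxcl10 (2 of 7, against 7.81%), and the cAMP response motif TGACGTCA in 0 of 7 (against 1.79%). All motifs were searched on both strands, and a match describes the letters only.

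Cxcl3 was the 1 member whose values did not overlap between diets. Its main and only probe set read 9.4286, 9.4346, 9.4390 and 9.4390 in collagen 1 to 4, against 9.4192, 9.4205, 9.4267 and 9.4266 in control 1 to 4. Every collagen array lay above every control array, with a gap of 0.00186 between collagen 1 and control 3. The diets did not overlap in 2.02% of all genes (2.01% of probe sets), and collagen lay wholly above control in 1.35% of genes (1.29% of probe sets). The means were 9.4353 ± 0.00494 with collagen and 9.4232 ± 0.00398 in controls (SD, n = 4 each), which put collagen 0.0120 ± 0.00305 (SE) higher, 2.68 times the within-group SD. Because Cxcl3 was singled out for this difference, these values are a description and carry no test. It was 0.0154 ± 0.00260 without both collagen 1 and control 4. Because the groups do not overlap, leaving out arrays could not turn its sign, so such values are no check of it.

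**Figure D1:**
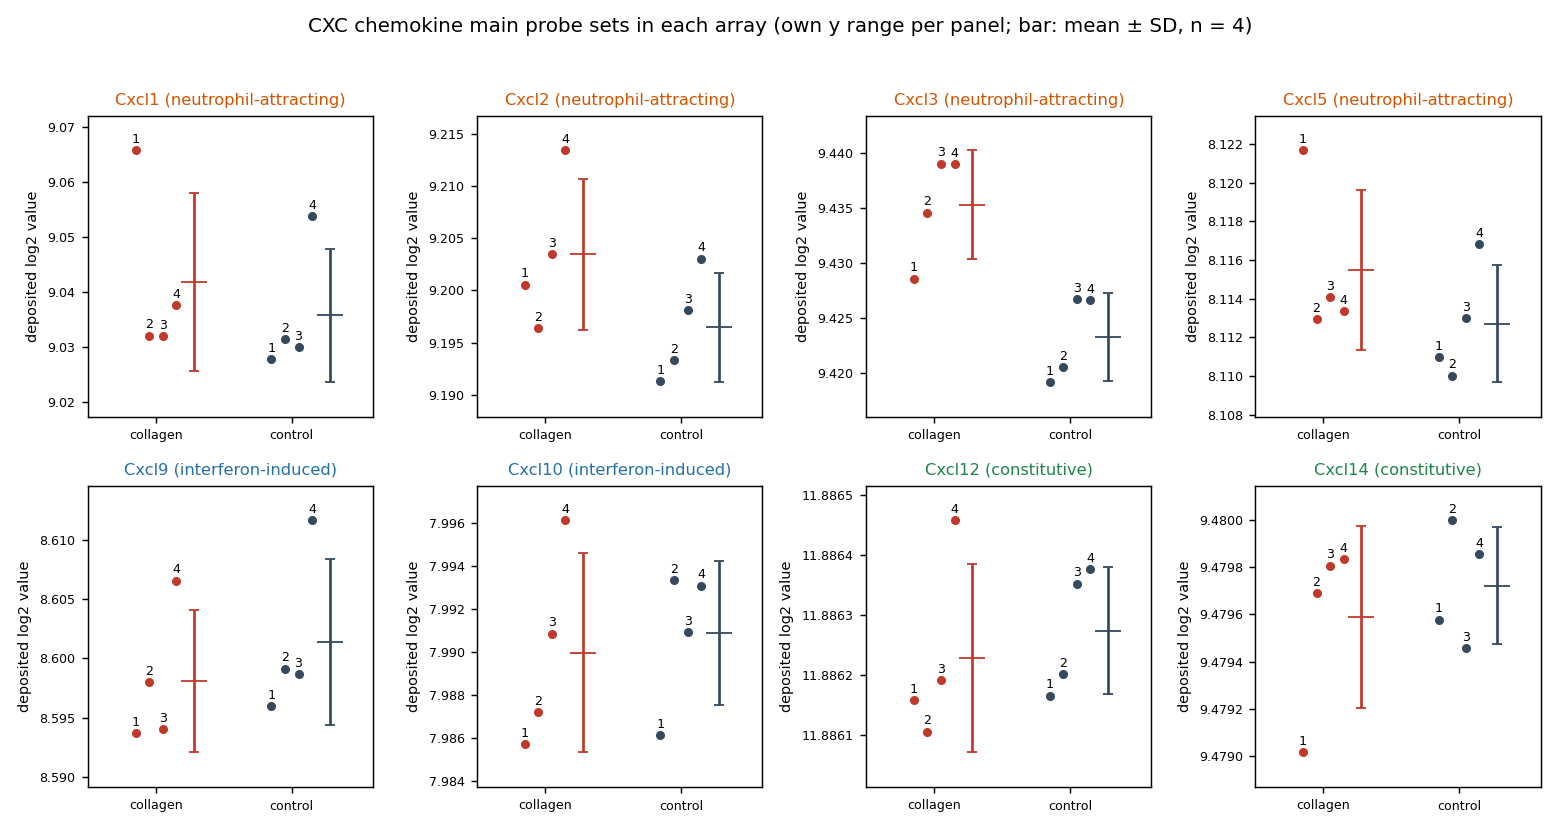
Deposited log2 value (y axis, own range in each panel) of the main probe set of each CXC chemokine gene in the collagen and control arrays, with array numbers beside the points and the mean ± SD (n = 4) as a bar. Cxcl3 is the gene whose collagen arrays (9.4286 to 9.4390) all lie above its control arrays (9.4192 to 9.4267), and Cxcl1 shows the high values of collagen 1 and control 4.

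Cxcl2, whose product acts on the same receptor as that of Cxcl3, leaned the same way with overlap. It read 9.2006, 9.1964, 9.2035 and 9.2134 in collagen 1 to 4, against 9.1914, 9.1934, 9.1981 and 9.2031 in control 1 to 4. Collagen 4 was the highest array, and control 4 lay above 2 of the collagen arrays. The difference was 0.00698 ± 0.00429 (SE, n = 4 each), with an adjusted p of 0.999 over all genes by limma.

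Cxcl1 and Cxcl5, both induced in epithelial cells and neutrophil-attracting, were highest in the same array of each diet. Cxcl1 read 9.0657, 9.0320, 9.0319 and 9.0375 in collagen 1 to 4, against 9.0277, 9.0313, 9.0299 and 9.0537 in control 1 to 4. Collagen 1 and control 4 were the highest arrays of their diets, and the other 6 lay between 9.0277 and 9.0375. The difference of 0.00608 ± 0.00971 (adjusted p = 0.999 by limma) turned to -0.00189 without collagen 1, and was 0.00413 ± 0.00201 without both collagen 1 and control 4. Cxcl5 read 8.1217, 8.1129, 8.1141 and 8.1133 in collagen 1 to 4, against 8.1110, 8.1100, 8.1130 and 8.1168 in control 1 to 4. The same 2 arrays were again the highest of their diets. Its difference was 0.00280 ± 0.00247 (adjusted p = 0.999 by limma), it was 7.37e-04 without collagen 1, 0.00417 without control 4 and 0.00211 ± 8.87e-04 without both arrays.

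The further Cxcl1 probe sets bore on whether these high arrays belonged to 1 probe set. The main probe set is of the type _s_at, and which transcripts its probes match was not examined. The second, of a type (_x_at) whose probes can match other transcripts, read from 8.9057 to 8.9063 with collagen and from 8.9057 to 8.9060 in controls. Collagen 1 (8.90626) and control 4 (8.90599) were its highest arrays of their diets too. With the main probe set it had Pearson r = 0.865 (exact permutation p = 0.00722, adjusted p = 0.0192). Spearman rho was 0.667 (exact permutation p = 0.0831, adjusted p = 0.166), and r was 0.670 without the 2 arrays farthest from the median. The third read 8.5391 in collagen 1 and 8.5282 in control 4, against 8.4789 to 8.5014 in the other 6 arrays. The main and the third probe sets correlated over the 8 arrays with Pearson r = 0.986 (exact permutation p = 1.74e-04, adjusted p = 0.00139 over 8 pairs of probe sets within genes) and Spearman rho = 0.976 (exact permutation p = 3.97e-04, adjusted p = 0.00317). The r without the 2 arrays farthest from the median was 0.913. All 3 Cxcl1 probe sets had a higher collagen mean.

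The interferon-induced members lay lower in the collagen mean and overlapped. Cxcl9 read 8.5937, 8.5980, 8.5940 and 8.6065 in collagen 1 to 4, against 8.5960, 8.5991, 8.5987 and 8.6116 in control 1 to 4. Array 4 of each diet was its highest. The difference of -0.00328 ± 0.00442 (adjusted p = 0.999 by limma) turned to 1.34e-04 without control 4. Cxcl10 read 7.9857, 7.9872, 7.9909 and 7.9961 in collagen 1 to 4, against 7.9861, 7.9933, 7.9909 and 7.9931 in control 1 to 4. The highest array and the lowest array were both of the collagen group. Its difference of -9.00e-04 ± 0.00275 (adjusted p = 0.999 by limma) turned to 5.22e-04 without collagen 1 and to 2.17e-05 without collagen 2. Cxcl10 lay below 8.193, the median of all probe set means, as did Cxcl5, and no detection calls were used.

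The constitutive members varied over a narrower range on the deposited scale. Cxcl12 read 11.88616, 11.88611, 11.88619 and 11.88646 in collagen 1 to 4, against 11.88617, 11.88620, 11.88635 and 11.88638 in control 1 to 4. Collagen 4 was the highest of the 8 arrays and collagen 2 the lowest. The difference of -4.53e-05 ± 9.06e-05 (adjusted p = 0.999 by limma) was -1.21e-04 without collagen 4, -4.54e-06 without collagen 2 and 9.84e-06 after median centring. Cxcl14 read 9.47902, 9.47969, 9.47981 and 9.47984 in collagen 1 to 4, against 9.47958, 9.48000, 9.47946 and 9.47986 in control 1 to 4. Collagen 1 was the lowest array, and the other collagen arrays lay within the control range. Its difference of -1.35e-04 ± 2.21e-04 (adjusted p = 0.999 by limma) turned to 5.58e-05 without collagen 1.

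Probe sets of 1 gene did not all run together. The 2 Cxcl9 probe sets correlated over the 8 arrays (Pearson r = 0.945, exact permutation p = 0.00196, adjusted p = 0.00784; Spearman rho = 0.881, exact permutation p = 0.00724, adjusted p = 0.0193), with r = 0.746 without the 2 farthest arrays. For the 3 Cxcl12 probe sets r was 0.413, -0.218 and 0.493, with adjusted p from exact permutation between 0.291 and 0.609. For Cxcl12, the second probe set (level 10.63) differed by -2.65e-05 ± 1.76e-05 and the third (level 7.82) by -1.06e-06 ± 3.11e-06. The 2 Cxcl14 probe sets correlated with Pearson r = 0.814 (exact permutation p = 0.0258, adjusted p = 0.0413). Their Spearman rho was 0.905 (exact permutation p = 0.00456, adjusted p = 0.0183), and r was 0.793 without the 2 farthest arrays. The second Cxcl14 probe set differed by -5.79e-05 ± 5.69e-05. None of the 6 further probe sets passed (adjusted p = 1 over all probe sets by limma).

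By direction alone, all 6 probe sets of neutrophil-attracting genes had a higher collagen mean. All 8 probe sets of the interferon-induced and constitutive genes had a lower one. Of the 6, Cxcl3 was chosen for its difference, so its direction adds no support, and 3 were probe sets of Cxcl1. Of the 8, the second Cxcl9 probe set differed by only -3.71e-07 ± 2.29e-06 (SE). Among all probe sets 53.3% had a higher collagen mean, and among all genes 52.9%, or 94.6% of genes after median centring. The first count stayed at 6 of 6 after quantile normalization and median centring and fell to 3 of 6 without collagen 1, where all 3 Cxcl1 probe sets turned. The second count was 5 of 8 after quantile normalization, 4 of 8 after median centring and between 5 and 8 with 1 array left out. Without both collagen 1 and control 4, all 8 main probe sets lay higher with collagen and 3 of the 8 non-neutrophil probe sets lay lower. In that setting 53.9% of all genes lay higher. The opposite directions of the 2 classes therefore held in full in the deposited values of all 8 arrays. They also held in full without collagen 4, control 2 or control 3 alone. They did not after quantile normalization or median centring, with any other 1 array left out, or without both collagen 1 and control 4. The difference between the classes was not tested.

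**Figure D2:**
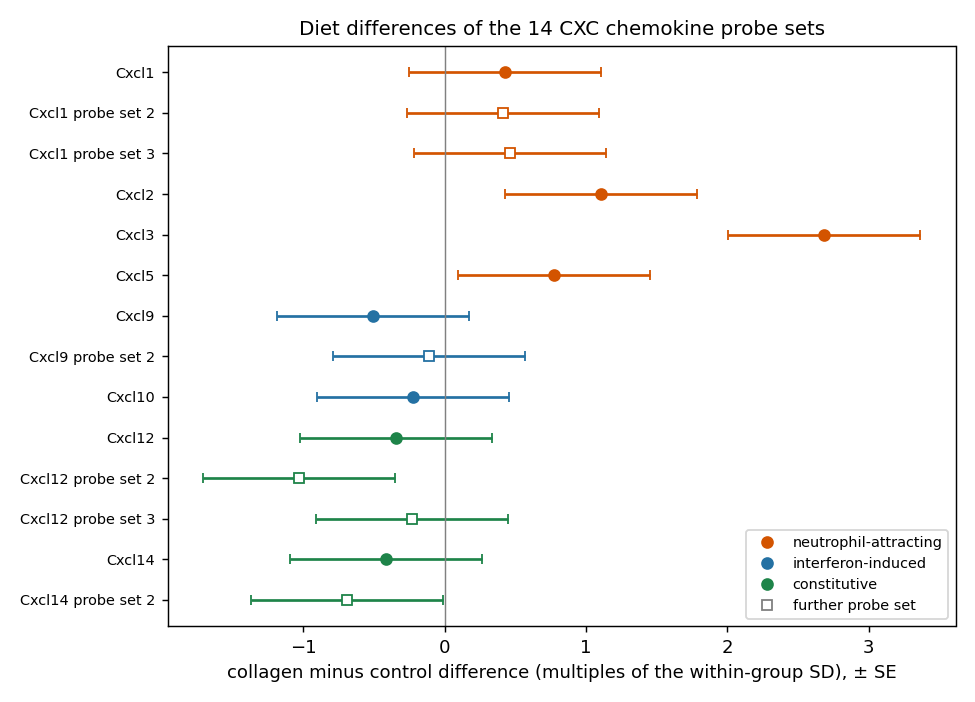
Collagen minus control difference of each of the 14 probe sets (x axis, in multiples of the within-group SD, ± SE from the fit over all probe sets, n = 4 arrays per diet), coloured by role, with open squares for further probe sets of a gene. Cxcl3 lies farthest from 0 at 2.68 SD, and every other probe set lies within 1.11 SD of 0.

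In size, the inducible members stood in the tail of the spread over arrays. Neutrophil-attracting genes had ranges from 0.0117 (Cxcl5) to 0.0380 (Cxcl1), wider than 99.5% to 99.8% of all probe sets. The interferon-induced genes had ranges of 0.0104 (Cxcl10) and 0.0179 (Cxcl9), wider than 99.4% and 99.6%. The constitutive genes had ranges of 3.51e-04 (Cxcl12) and 9.84e-04 (Cxcl14), wider than 94.0% and 96.9%. Within genes the spread depended on the probe set. The second Cxcl9 probe set had a range of 7.95e-06 and the second Cxcl1 probe set one of 5.26e-04. Whether a range on the deposited scale shows the spread in skin is unknown.

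**Figure D3:**
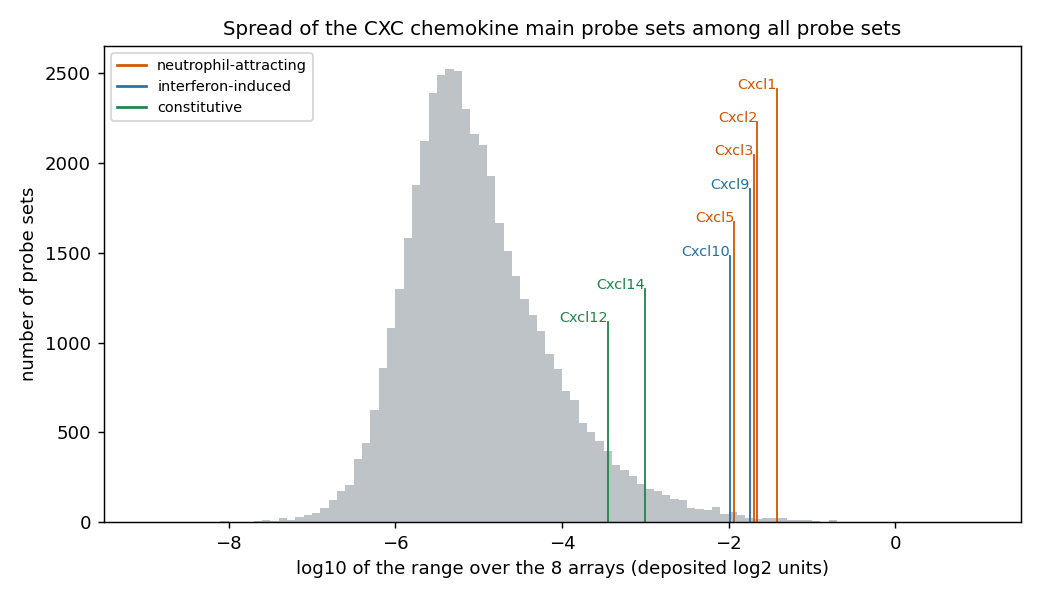
Histogram of the range over the 8 arrays for all probe sets (x axis, log10 of the range in deposited log2 units; y axis, number of probe sets), with a line for the main probe set of each CXC chemokine gene, coloured by role; line heights carry no value. The 6 inducible genes lie between 0.0104 and 0.0380 in range, and Cxcl12 and Cxcl14 at 3.51e-04 and 9.84e-04.

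The 8 genes did not rise and fall as 1 unit. Of the 28 pairs of members, 0 passed an adjusted p of 0.05 by the exact permutation test of Pearson's r over the 8 arrays. The pair with the highest r was Cxcl1 and Cxcl5, with r = 0.938 (exact permutation p = 0.00300, adjusted p = 0.0840) and Spearman rho = 0.786 (exact permutation p = 0.0279, adjusted p = 0.156). It was 0.948 after subtracting each diet's mean and 0.453 without collagen 1 and control 4, the 2 arrays farthest from the median of Cxcl1, so it rested on those arrays. Cxcl2 and Cxcl3 had r = 0.772 (exact permutation p = 0.0207, adjusted p = 0.174) and rho = 0.762 (exact permutation p = 0.0368, adjusted p = 0.172), with 0.699 within diets and 0.539 without the 2 farthest arrays. Cxcl3 and Cxcl1 had r = 0.0354 (exact permutation p = 0.956, adjusted p = 0.994) and rho = 0.429 (exact permutation p = 0.299, adjusted p = 0.644), with r = -0.313 within diets and 0.741 without the 2 farthest arrays.

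Neither the interferon-induced pair nor any pair across the classes passed over the 8 arrays. Cxcl9 and Cxcl10 had r = 0.700 (exact permutation p = 0.0520, adjusted p = 0.208) and rho = 0.857 (exact permutation p = 0.0107, adjusted p = 0.150), with 0.515 without the 2 farthest arrays. Cxcl10 and Cxcl12 had r = 0.799 (exact permutation p = 0.0237, adjusted p = 0.174) and rho = 0.857 (exact permutation p = 0.0107, adjusted p = 0.150), with 0.639 without the 2 farthest arrays. After subtracting each diet's mean, 1 of 28 pairs passed, Cxcl2 and Cxcl12, with r = 0.974 (exact permutation within diets, p = 0.00174, the smallest that 576 pairings can give, adjusted p = 0.0486). Over all 8 arrays that pair had r = 0.701 (exact permutation p = 0.0461, adjusted p = 0.208), rho = 0.524 (exact permutation p = 0.197, adjusted p = 0.501) and r = 0.320 without the 2 farthest arrays.

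**Figure D4:**
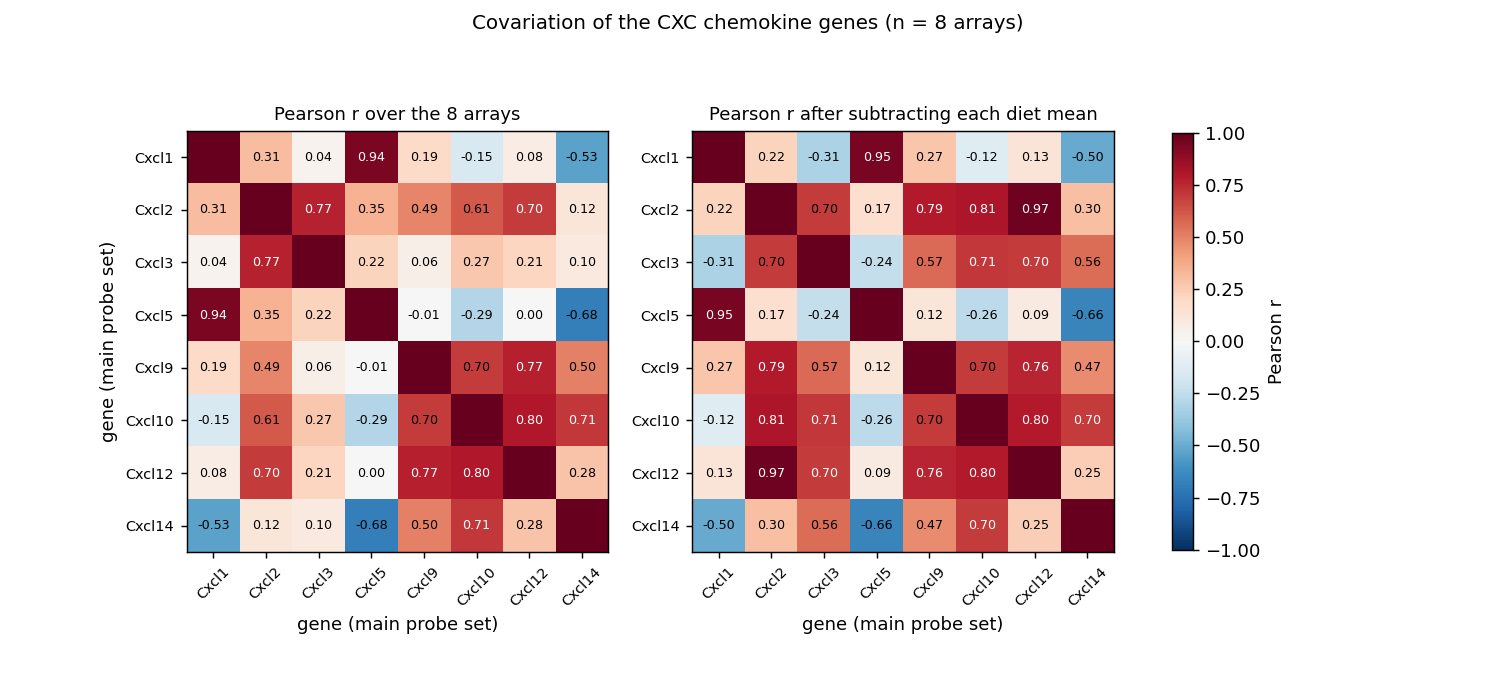
Pearson r between the main probe sets of the 8 genes (both axes), over the 8 arrays on the left and after subtracting each diet's mean on the right, on a colour scale from -1 to 1. Over the 8 arrays r was 0.938 for Cxcl1 and Cxcl5 (0.453 without collagen 1 and control 4), 0.799 for Cxcl10 and Cxcl12 and 0.0354 for Cxcl1 and Cxcl3, and 0 of the 28 pairs passed the test.

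Among 11594 other genes (11595 for Cxcl5 and Cxcl10) at or above the median level, those most like Cxcl3 over the 8 arrays were Abhd17b (r = 0.970), Creb1 (0.9505), Brf1 (0.935), Foxred1 (0.927) and Kin (0.921), and 9 genes exceeded 0.9. The genes named for Cxcl3 had ranges from 2.54e-06 (Kin) to 5.54e-05 (Creb1), against 0.0198 for Cxcl3 itself. The median range over all genes was 9.165e-06. The genes most like Cxcl1 were Cyp1b1 (0.973), Adamts1 (0.965) and Wee1 (0.963), with 41 genes over 0.9. Cxcl2 was most like F10 (0.964), Cxcl5 most like Paqr7 (0.984) and Cxcl9 most like Rilp (0.986). Cxcl10 was most like Manbal (0.977), followed by Parp9 (0.971), while Cxcl12 was most like Mfap5 (0.974), a microfibril protein, and Cxcl14 most like Krt75 (0.969), a hair follicle keratin. Each is among the highest of all the coefficients of its member over 8 arrays and is given as a description. How many genes exceed 0.9 by chance was not examined.

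Other genes of the pathway showed no call. The other CXC ligands lay higher in 3 and lower in 4 of 7 genes, with Ppbp, a platelet chemokine that also acts on Cxcr2, at 3.03e-04 ± 1.61e-04, Cxcl13, which attracts B cells, at 0.00129 ± 0.00156 and Cxcl15 at -1.79e-06 ± 1.75e-06. The receptors and scavengers lay higher in 3 and lower in 4 of 7 measured genes (of 8 listed). Cxcr2, the receptor of the neutrophil-attracting members, differed by 7.21e-07 ± 1.49e-06 at a level of 7.85, Cxcr4, the receptor of Cxcl12, by -1.69e-05 ± 2.10e-05 and Ackr1, a chemokine scavenger, by 9.55e-05 ± 1.11e-04. Of the listed partners and peptidases of Cxcl12 and Cxcl14, 1 of 6 lay higher, Hif1a at 8.10e-06 ± 3.29e-06, while Mmp2 and Dpp4, proteases that cut Cxcl12, lay at -7.85e-05 ± 4.27e-05 and -1.11e-04 ± 1.21e-04. CC chemokines, the sister family, lay higher in 8 and lower in 7 of 15, led by Ccl17 at 5.32e-04 ± 2.45e-04, Ccl8 at -0.00187 ± 0.00119 and Ccl24 at 0.00124 ± 0.00152. After median centring 5 of the 7 ligands, all 7 receptors, 4 of the 6 partners and 12 of the 15 CC chemokines lay higher. In that setting 94.6% of all genes lay higher, so these splits were not kept under that scaling. None of these genes passed (adjusted p = 0.999 over all genes by limma).

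A list of chemokine-inducing cytokines, which holds interferon gamma, an inducer of Cxcl9 and Cxcl10, beside inducers of the neutrophil-attracting members, lay higher with collagen in 8 of 8 measured genes (of 10 listed), with a median of 0.345 within-group SD, against 0.0517 over all genes. Levels of the 8 genes ran from 7.12 to 9.27, and most lay below 8.193, the median of all probe set means. Tnf (level 8.33) differed by 1.42e-05 ± 9.24e-06, Csf3 (7.66) by 7.65e-07 ± 8.12e-07 and Csf2 (7.73) by 2.50e-06 ± 3.20e-06. None of the 8 passed (adjusted p = 0.999 by limma). The count was 6 of 8 after quantile normalization, between 5 and 8 with 1 array left out, and 5 of 8 without collagen 1 and control 4. NF-kappaB pathway genes lay lower in 8 of 11 measured genes (of 12 listed), with a median of -0.590 SD. Zc3h12a, an RNase that degrades inflammatory transcripts, differed by -3.25e-06 ± 1.06e-06, Relb by -1.16e-05 ± 5.16e-06 and Nfkb2 by -1.55e-06 ± 7.92e-07, and none passed (adjusted p = 0.999 by limma). After median centring 9 of the 11 lay higher, against 94.6% of all genes, so the direction was not kept under that scaling.

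Genes of the interferon gamma response lay lower with collagen in 12 of 12 measured genes (of 14 listed), the side on which Cxcl9 and Cxcl10 also lay, with a median of -0.836 SD. Among all genes 52.9% lay higher, with a median of 0.0517 SD. Irf1, a transcription factor, differed by -4.08e-04 ± 2.13e-04, the GTPase Irgm1 by -9.26e-04 ± 5.59e-04 and the immunoproteasome subunit Psmb8 by -5.39e-04 ± 3.66e-04, and none passed (adjusted p = 0.999 by limma). The count was 11 of 12 after quantile normalization, 9 of 12 after median centring and between 10 and 12 with 1 array left out. After median centring 94.6% of all genes lay higher. The mean z score of this list ran from -1.32 in collagen 1 to 0.909 in collagen 4, and from -0.512 in control 1 to 1.05 in control 4. In each diet array 1 was the lowest in this score and array 4 the highest, as was array 4 in Cxcl9.

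**Figure D5:**
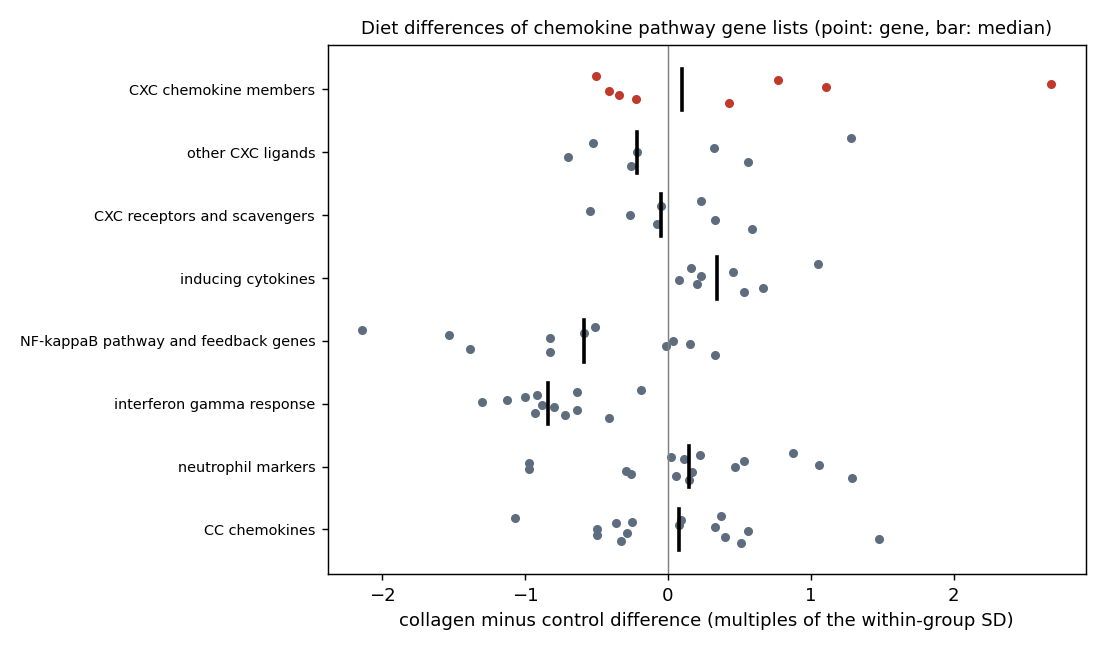
Collagen minus control difference of each gene (points, x axis in multiples of the within-group SD) in the CXC chemokine members and 7 other lists, with the list median as a bar. Medians run from -0.836 in the interferon gamma response to 0.345 in the inducing cytokines, and Cxcl3 is the point at 2.68.

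Neutrophil markers are given beside the neutrophil-attracting members, since neutrophils are the cells these recruit. Of 15 measured markers (of 18 listed), 11 lay higher and 4 lower with collagen, with a median of 0.145 SD, and none passed (adjusted p = 0.999 by limma). The summed level of the 15 ran from 133.88 to 134.02 in the collagen arrays, against 133.91 to 133.94 in the control arrays. Their mean z score was 1.45 in collagen 4 and between -0.694 and -0.161 in collagen 1 to 3, against -0.428 to 0.0723 in control arrays. Without collagen 4 the count of higher markers was 4 of 15. Clec4d differed by 0.00128 ± 6.75e-04, Mmp8 by 4.04e-06 ± 2.61e-06 and Mmp9 by -7.28e-04 ± 5.10e-04.

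Markers of other skin cells are given by their counts and levels. Keratinocyte markers lay higher in 6 of 7 (1 of 7 after quantile normalization, with 0 lower and the others equal), with a mean z score from -0.310 to 1.45 with collagen and from -0.775 to 0.0848 in controls, and with summed levels of 92.3382 to 92.3390 and 92.3376 to 92.3385. Macrophage and Langerhans cell markers lay lower in 6 of 7 (summed levels of 82.283 to 82.291 with collagen and 82.286 to 82.291 in controls). Fibroblast markers lay lower in 7 of 7 (summed levels of 88.969 to 88.975 and 88.971 to 88.980), and 4 of the 7 lay higher after median centring. Endothelial markers lay lower in 5 of 5, with mean z scores that did not overlap (-1.48 to 0.297 with collagen and 0.339 to 0.683 in controls) and summed levels of 45.81268 to 45.81309 and 45.81300 to 45.81328, but 3 of the 5 lay higher after median centring, as did 94.6% of all genes. Taken singly, the diets did not overlap in 0 of the 5 endothelial genes, against 2.02% of all genes. They did not overlap in 1 of 7 keratinocyte markers and 1 of 7 macrophage and Langerhans cell markers. The other marker lists held no such gene. How often list scores separate by diet was not examined. Skeletal muscle markers lay lower in 7 of 8 (summed levels of 97.60 to 98.16 with collagen and 97.30 to 98.33 in controls). The exception, named after its values were seen, was Myh4, a fast-fibre myosin, which differed by 0.204 ± 0.255 with a range of 1.04 over the 8 arrays and enters the summed levels. T cell markers (of which Thy1 is also in the fibroblast list) lay higher in 2 of 6 and erythrocyte markers in 1 of 2. Mast cell markers lay higher in 3 of 5, and in 0 to 5 with 1 array left out. Their mean z score was 1.72 in collagen 1 and 1.18 in control 4, and between -0.942 and 0.132 in the other arrays. Those 2 arrays were also the highest of their diets in Cxcl1 and Cxcl5, and a link was not tested. No marker passed (adjusted p = 0.999 by limma). The Gapdh control probe sets, whose 3′ minus 5′ difference reads RNA integrity among other things, gave 0.29002 to 0.29058 with collagen and 0.28978 to 0.29041 in controls. The part of these measures in the Cxcl3 difference was not tested.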

How the data were processed

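Biotin-labelled RNA from powdered frozen dorsal skin was hybridised to 1-colour 3′ expression arrays, per the labels' protocols. The authors deposited log2 values, 1 column per array. R 2.7.2 is named in the submitters' processing notes, while the sources used here give no normalization, summary method or genome build. That the scale is log2 was inferred from the range of values. Signal over background is unknown, and the number of arrays limits the precision.

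Values were used as deposited, without 64 control probe sets. Of 45037 probe sets, the platform annotation gave 1 gene symbol to 34945, several to 932 and none to 9160, and 34741 of the first were found by Entrez identifier among RefSeq genes (GRCm38.p6). Probe sets and genes were fitted by lmFit and eBayes of limma 3.58.1 (R 4.3.3), as two-sided tests of collagen minus control with Benjamini-Hochberg adjustment over all features. Data handling used data.table (version 1.17.8), pandas 2.3.3 and numpy 2.4.6, and figures matplotlib 3.10.9. Correlations used two-sided exact permutation of the 40320 pairings of arrays, adjusted over 28 pairs. The tests were tested on simulated data.

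Members and gene lists were chosen with earlier results of these data known. Named genes were all members, up to 3 genes per list with the smallest unadjusted p, and the genes with the highest Pearson r to each member (5 for Cxcl3, 3 computed for the others, of which some are named). Krt14, Krt10 and Col1a1 were named as cell type markers. Tried as alternatives were quantile normalization, median centring, leaving out each array, a replicate block, array weights, other variance models, a filter on dim probe sets, the mean over probe sets and, added after seeing the data, leaving out collagen 1 and control 4 together.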

Additional observations from a re-analysis of the deposited data

Results flagged for a closer look

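In 4 of 28 groups of 4 arrays (14 probe sets in 2 diets), 1 array lay farther from the others than Dixon's 95% limit for the gap over the range. Chance flags about 1 in 20 groups, and the probe sets are not independent of each other. Cxcl1 lay at 9.065665 in collagen 1 (gap ratio 0.836) and at 9.053750 in control 4 (0.860), each the highest of its diet. Cxcl5 lay at 8.121677 in collagen 1 (0.871), also the highest. The second Cxcl12 probe set lay at 10.632221 in control 1 (0.866), the highest control array.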

How the results depend on the processing

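The count of probe sets past an adjusted p of 0.05 was 0 by limma and was 2 after quantile normalization (Nrp1 and Cep97, named after their values were seen). The count of genes was 0, and 1 without both collagen 1 and control 4 (D17H6S56E-5, named after its value was seen). With 1 array left out both counts stayed at 0, and 4 to 5 of the 8 members lay higher with collagen. Without both arrays all 8 lay higher, against 53.9% of all genes. Cxcl9 was then 0.00159 ± 0.00360 (SE), Cxcl10 0.00126 ± 0.00316, Cxcl12 1.19e-05 ± 1.13e-04 and Cxcl14 1.0004e-04 ± 1.61e-04 higher, each less than its SE. With 1 array left out the differences ran from -0.00189 to 0.0121 for Cxcl1, -0.00611 to 1.34e-04 for Cxcl9, -0.00295 to 5.22e-04 for Cxcl10 and -2.23e-04 to 5.58e-05 for Cxcl14. Median centring turned Cxcl12 to 9.84e-06, since it raised the median difference of all probe sets to 5.52e-05 and the share of genes with a higher collagen mean to 94.6%. Pairs of members past the threshold numbered 0 with each array left out and 1 with diet means subtracted. Array weights put Cxcl1 at 0.00181. Cxcl2 and Cxcl5 kept their direction in every alternative run. The Cxcl3 difference ran from 0.0107 to 0.0143 with 1 array left out, where its direction could not turn. The cause of these turns was not tested.

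The labels do not say whether the replicate numbers pair the arrays. Same-numbered arrays' deviations from the diet means correlated over genes with 0.369, 0.0531, 0.220 and 0.0187 for replicates 1 to 4. Collagen 1 and collagen 3 correlated best with the control array of their own number. Collagen 2 correlated best with control 3 (0.125) and collagen 4 with control 2 (0.172). These values do not settle whether the arrays are paired. With the replicate block 0 probe sets and 0 genes passed, 4 members lay higher, and the Cxcl3 difference was 0.0120 ± 8.99e-04. Its SE without the block was 0.00305. Cxcl3 was chosen for its difference and the pairing is not known, so the smaller SE carries no test. Depth does not apply to arrays, and signal over background was not available.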
